A study of Danio rerio with 24 samples.

Results

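The TNF receptor superfamily, its ligands and the NF-κB transcription factors were followed through the livers of larval zebrafish. Genes were taken from the count table of pooled livers by symbol (names that begin with *tnfrsf*, *tnfsf*, *tnfa*, *tnfb*, *traf* with a number, *nfkb*, *ikbk*, *birc*, *tradd* or *ripk*, together with *rel*, *rela*, *relb* and *bcl3*), and a gene was kept when any count was present in at least 9 of the 18 libraries. Of 19793 genes in the table, 56 matched by symbol and 49 were kept. The prefix *tnfa* also takes in 8 *tnfaip* genes, which are named for their induction by TNF and do not form a protein family of their own.

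Each library came from a pool of 40 livers dissected, by the labels, at 7 days post fertilization (dpf). The study's own text also names an earlier age. The *mtm* group (6 libraries) carried a biallelic loss-of-function mutation of *mtm1*, which encodes a phosphoinositide phosphatase. The mutation was present in every tissue of these larvae, not in the liver alone. For the EtOH-treated group (4 libraries), WT larvae spent their last 32 hours in water with 2% ethanol. For the overfed group (4 libraries), the rations of WT larvae were raised 6-fold, starting at 5 dpf. Untreated WT larvae (titled AB) of the same age made up 4 libraries. Of the *mtm* libraries, 3 belong to a first submission (1, 2 and 3) and 3 were resubmitted (R1, R2 and R3), with no label on whether R1 to R3 came from pools of their own. P-values therefore measure the spread between libraries, part of which may be technical.

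TNF ligands bind trimeric receptors at the cell surface, and the receptors recruit TRAF and TRADD adaptors, RIP kinases and the ubiquitin ligases of the BIRC family. These assemble the IKK kinases, which mark the inhibitory IκB proteins for destruction and so free dimers of the NF-κB subunits to enter the nucleus. Several IκB proteins, subunits and ligases are themselves targets of NF-κB, which closes feedback loops. In the liver, TNF and NF-κB are known for their roles in inflammation, hepatocyte survival and regeneration, with macrophages as a main source of TNF.

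Libraries held 8919274 to 15831830 counts in *mtm* livers, 11059423 to 18948277 in EtOH-treated livers, 15131025 to 20582311 in overfed livers and 9297847 to 17717723 in WT livers. Levels are given as CPM, the count of a gene scaled to a common library size with the TMM method, and fold changes and adjusted p-values come from the quasi-likelihood test of edgeR with Benjamini-Hochberg adjustment over all 11489 genes that had at least 5 counts in 80% of the libraries. A gene was called at an adjusted p under 0.05. The *mtm1* transcript itself was at 0.158 to 2.37 CPM in *mtm* libraries and at 3.22 to 7.88 CPM in WT libraries, groups that did not overlap, with a log2 fold change of -1.83 that did not pass the threshold. In EtOH-treated libraries *mtm1* was at 0.174, 2.22, 4.14 and 4.86 CPM, with EtOH 1 and EtOH 2 inside the *mtm* range. Its log2 fold change there against WT livers was -0.96, not called. Libraries *mtm* R2 and EtOH 1 held the fewest detected genes (12957 and 13215, against 14436 to 16609 in the other 16), and 10 and 9 of the 49 members had no count in them.

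Of the 49 members, 37 passed the read filter and were tested. In *mtm* livers, 13 of the 37 were called higher than in WT livers and 0 lower, where 10.1% of all tested genes were called higher and 8.59% lower. In EtOH-treated livers 7 were called higher and 1 lower (18.9% and 2.7% of the members, against 4.66% and 2.7% of all tested genes). In overfed livers 0 of the 37 were called in either direction (0.0% of all tested genes in each). Of the genes called in *mtm* livers, 6 encode NF-κB subunits or IκB proteins: *rel*, *nfkb2*, *relb*, *bcl3*, *nfkbiab* and *nfkbie*. The others were *tnfrsf9a*, *traf4a*, *traf4b*, *birc2*, *tnfaip1*, *tnfaip2b* and *tnfaip6*. None of the 3 tested ligands or the 2 tested IKK kinases was called in the main edgeR fit in either condition. DESeq2 called the ligand *tnfsf10l4* in EtOH-treated livers. The median log2 fold change of the 37 members was 0.90 in *mtm* against WT livers, with 32 above 0, while that of all tested genes was 0.01. In EtOH-treated against WT livers the medians were 0.24 and -0.03. Both contrasts use the same WT libraries, so their values stand side by side and are not independent of each other.

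**Figure D1:**
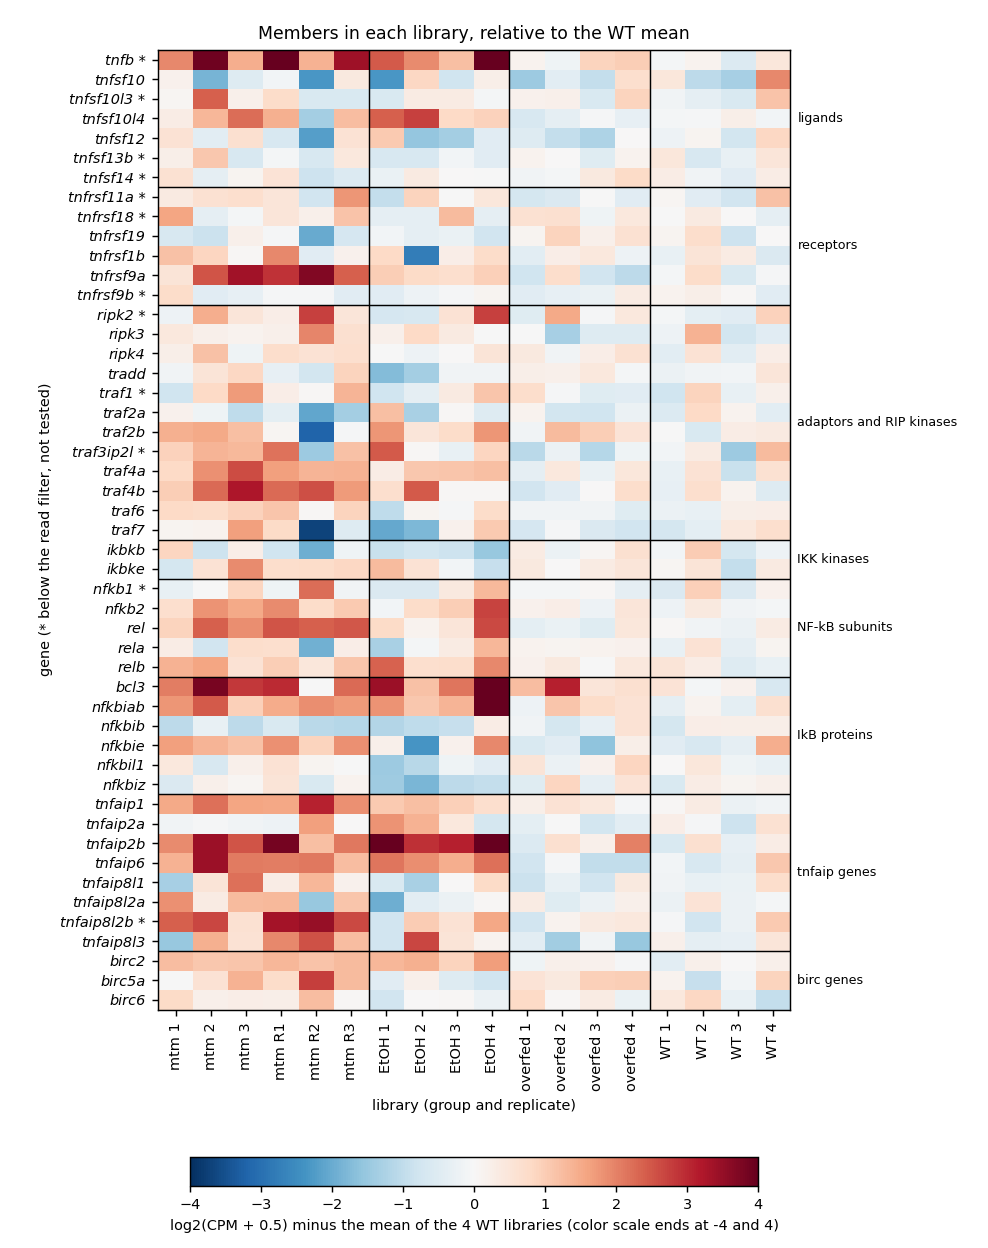
Level of each of the 49 members (rows, grouped by role; an asterisk marks the 12 members below the read filter) in each of the 18 libraries (columns), as log2(CPM + 0.5) minus the mean of the 4 WT libraries; red is higher and blue lower than WT, and the color scale ends at -4 and 4. The *mtm* columns are red in the rows of *rel*, *nfkb2*, *nfkbiab* and the *traf4* and *tnfaip2b* genes, the EtOH 4 column is the reddest of its group for *nfkb2*, *rel*, *bcl3* and *nfkbiab*, and the overfed columns stay mostly close to the WT columns, apart from *bcl3* in overfed 2.

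Ligands were scarce. *tnfa*, which encodes the zebrafish ortholog of TNF-α, had counts in 2 of the 18 libraries (7 in EtOH 4 and 4 in overfed 1) and was left out by the presence rule. It had 0 counts in every *mtm* and every WT library, where a count of 0 allows up to 3 counts, or 0.139 to 0.320 CPM in *mtm* libraries and 0.194 to 0.309 CPM in WT libraries, so that no difference was detectable at this depth. These limits cover counting error only.

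The second TNF-type ligand, *tnfb*, was the ligand with the highest mean CPM. It ranged from 1.43 to 16.3 CPM in *mtm* libraries (median 4.72), and was at 3.53, 2.22, 1.17 and 32.7 CPM in EtOH-treated libraries, 0.311, 0.146, 0.861 and 0.934 CPM in overfed libraries and 0.194, 0.309, 0 and 0.509 CPM in WT libraries. Every *mtm* and every EtOH-treated library lay above every WT library, and the value of 32.7 CPM in EtOH 4 was the highest of all 18. *tnfb* missed the read filter because its WT and overfed counts were low, with 14 libraries at 5 or more counts. In a fit that kept each gene with any count in at least 9 libraries (15653 genes), its log2 fold change was 5.58 ± 1.09 (SE) in *mtm* against WT livers (edgeR adjusted p = 0.00194) and 4.51 ± 1.09 in EtOH-treated against WT livers (edgeR adjusted p = 0.0212). Such a filter can admit a gene through the groups in which it is high. *tnfb* had a count in 17 of the 18 libraries, but its WT counts were only 3, 3, 0 and 6. These values therefore describe *tnfb* and are not counted among the calls. The fold changes also depend on the small count added to a WT library without reads.

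Of the other ligands, the TRAIL-type genes *tnfsf10* and *tnfsf10l4* and the TWEAK gene *tnfsf12* were tested. *tnfsf10l4* was at 6.14, 7.95, 1.72 and 1.93 CPM in EtOH-treated libraries and at 0.712, 0.721, 1.0 and 0.678 CPM in WT libraries, without overlap, with a log2 fold change of 2.54 ± 0.93 that missed the threshold in edgeR (adjusted p = 0.117) and passed it in DESeq2 (2.53 ± 0.85, adjusted p = 0.0272). In *mtm* against WT livers *tnfsf10l4* had 1.45 ± 0.88 (edgeR adjusted p = 0.297), and with *mtm* R2 and EtOH 1 both left out 1.86 ± 0.58 (edgeR adjusted p = 0.0319). *tnfsf12* had 0.02 ± 0.95 in *mtm* and -0.72 ± 0.97 in EtOH-treated against WT livers. Between *mtm* and EtOH-treated livers *tnfsf12* had 0.74 ± 0.92 (edgeR adjusted p = 0.673). With those 2 libraries left out this was 2.51 ± 0.65 (edgeR adjusted p = 0.0435). *tnfsf10l3*, *tnfsf13b* and *tnfsf14* stayed at or under 3.58 CPM in every library. *tnfsf11*, which encodes the osteoclast factor RANKL, had counts in 8 libraries, 1 short of the presence rule, and 68 of its 82 counts lay in the 4 EtOH-treated libraries (22, 27, 7 and 12). It had 13 counts over the 6 *mtm* libraries, 0 in overfed libraries and 1 in WT libraries, and it was not tested. The members just inside the presence rule, *tnfrsf18*, *tnfrsf9b*, *tnfsf10l3* and *tnfsf13b*, had counts in 13 libraries each.

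Among the 3 tested receptors, *tnfrsf9a* was called in *mtm* livers. It is 1 of 2 zebrafish genes named after *TNFRSF9*, which in mammals encodes the costimulatory receptor 4-1BB of activated lymphocytes. It ranged from 9.18 to 86.7 CPM in *mtm* libraries (median 43.7), and was at 12.9, 11, 10.3 and 12.6 CPM in EtOH-treated libraries, 3.36, 10.5, 3.51 and 2.73 CPM in overfed libraries and 5.82, 10.8, 3.93 and 6.02 CPM in WT libraries. The other 5 *mtm* libraries (34.9 CPM and above) lay over every library of the other groups, and *mtm* 1, at 9.18 CPM, fell within the WT range. The log2 fold change was 2.80 ± 0.51 in *mtm* against WT livers (6.97-fold, edgeR adjusted p = 0.000932) and 0.94 ± 0.49 in EtOH-treated against WT livers (edgeR adjusted p = 0.295). The second gene of the pair, *tnfrsf9b*, was at or under 0.640 CPM in every library. The lymphocyte markers were near the floor in all groups: 13 of the 15 listed genes were in the table, none passed the read filter, and together they came to 3.66 to 15.2 CPM in *mtm*, 1.25 to 11.2 CPM in EtOH-treated, 3.74 to 6.42 CPM in overfed and 2.03 to 8.47 CPM in WT libraries, with *cd79b* and *nkl.2* at 0 throughout.

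*tnfrsf1b*, which encodes the TNF receptor 2, ranged from 2.85 to 16.9 CPM in *mtm* libraries (median 6.31), and was at 7.53, 0.185, 5.07 and 7.25 CPM in EtOH-treated libraries and 3.23, 6.18, 5.36 and 2.63 CPM in WT libraries. All 3 groups overlapped, and the log2 fold changes were 0.64 ± 0.69 in *mtm* and 0.03 ± 0.77 in EtOH-treated against WT livers, with errors that leave room for a sizeable change. *tnfrsf1a*, the gene of TNF receptor 1, was not analysed here. *tnfrsf19*, the gene of the receptor TROY, had log2 fold changes of -0.69 ± 0.45 and -0.48 ± 0.47 in these contrasts, with edgeR adjusted p of 0.34 and 0.621.

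Adaptors and RIP kinases formed the largest group, with 12 members of which 9 were tested. The pair *traf4a* and *traf4b*, whose mammalian counterpart acts in cell junctions and migration and is not a core adaptor of TNF receptors, was called in *mtm* livers. *traf4a* ranged from 17.2 to 61.8 CPM in *mtm* libraries (median 28.6), and was at 12, 21, 21.3 and 22.7 CPM in EtOH-treated libraries, 7.45, 13.1, 8.01 and 13.4 CPM in overfed libraries and 7.76, 14.7, 4.94 and 15 CPM in WT libraries. *traf4b* ranged from 5.12 to 26.8 CPM in *mtm* libraries (median 13.3), and was at 4.11, 15.07, 2.50 and 2.47 CPM in EtOH-treated libraries, 1.19, 1.61, 2.38 and 4.17 CPM in overfed libraries and 1.81, 4.12, 2.65 and 1.53 CPM in WT libraries. For both genes, all 6 *mtm* libraries lay above all 4 WT libraries. The log2 fold changes in *mtm* against WT livers were 1.82 ± 0.37 for *traf4a* (3.52-fold, edgeR adjusted p = 0.00248) and 2.50 ± 0.60 for *traf4b* (5.65-fold, edgeR adjusted p = 0.00708). In EtOH-treated against WT livers they were 0.88 ± 0.37 and 1.14 ± 0.60, with edgeR adjusted p of 0.177 and 0.304.

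*traf2a* and *traf2b* encode the adaptor that brings BIRC ligases to TNF receptors, and their log2 fold changes in *mtm* against WT livers were -1.39 ± 0.79 and 0.84 ± 0.81, neither of them called. *traf2b* was at 11.6, 12.6 and 9.99 CPM in *mtm* 1, 2 and 3 and at 4.28, 0 and 3.88 CPM in R1, R2 and R3, against 4.01, 2.47, 5.08 and 5.34 CPM in WT libraries. The 3 libraries of the first submission lay above the WT range and the resubmitted libraries did not, and with the first submission alone *traf2b* was called (log2 fold change 1.54 ± 0.48, edgeR adjusted p = 0.0496). Without *mtm* R2 alone it was 1.12 ± 0.50 (edgeR adjusted p = 0.126). *tradd*, the adaptor of the death domain of TNF receptor 1, had a log2 fold change of 0.33 ± 0.38 in *mtm* and -0.88 ± 0.40 in EtOH-treated against WT livers (edgeR adjusted p of 0.627 and 0.216). Between *mtm* and EtOH-treated livers it had 1.21 ± 0.39 (edgeR adjusted p = 0.0715), which passed in DESeq2 (adjusted p = 0.0130) and in edgeR without *mtm* R2 (1.38 ± 0.35, adjusted p = 0.0299).

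*traf6* encodes the ubiquitin ligase that relays signals of interleukin-1 and Toll-like receptors. It ranged from 16.6 to 35.3 CPM in *mtm* libraries (median 29.4), and was at 7.70, 17.2, 15.5 and 26.9 CPM in EtOH-treated libraries and 13.6, 13, 19.1 and 19.2 CPM in WT libraries. The lowest *mtm* value, in R2, was the only one inside the WT range. The log2 fold change of 0.90 ± 0.31 in *mtm* against WT livers just missed the threshold (edgeR adjusted p = 0.0559), and without *mtm* R2 it was 1.06 ± 0.29 and passed it (edgeR adjusted p = 0.0178). In EtOH-treated against WT livers it was 0.02 ± 0.33.

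*ripk3*, the kinase of necroptosis in mammals, drew the most counts of all members in sum over the 18 libraries, though *nfkbiab* was higher in EtOH 4, a comparison that is not corrected for transcript length. It ranged from 402 to 1427 CPM in *mtm* libraries (median 461), and was at 421, 634, 475 and 364 CPM in EtOH-treated libraries, 362, 147, 258 and 260 CPM in overfed libraries and 321, 962, 221 and 268 CPM in WT libraries. The spread within groups was wide, with *mtm* R2 and WT 2 far above the rest of their groups, and none of the contrasts was called (log2 fold change 0.51 ± 0.40 in *mtm* against WT livers, edgeR adjusted p = 0.439). Without *mtm* R2 the log2 fold change was 0.20 ± 0.40.

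The IKK kinases did not change detectably. *ikbkb*, the kinase that acts on IκB in the canonical pathway, was at 0.869, 1.02, 0.937 and 0.386 CPM in EtOH-treated libraries and at 1.88, 4.63, 1.07 and 1.70 CPM in WT libraries. These groups did not overlap, but the counts were few and the log2 fold change of -1.58 ± 0.79 missed the threshold (edgeR adjusted p = 0.27). In *mtm* livers *ikbkb* spread from 0.158 to 4.16 CPM (median 1.35), around the WT values. *ikbke*, a kinase better known for interferon induction, had log2 fold changes of 0.72 ± 0.55 and 0.29 ± 0.56 in *mtm* and EtOH-treated against WT livers. *ikbkg*, the regulatory subunit, was not analysed here.

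Of the 4 tested NF-κB subunits, 3 were called in *mtm* livers and 1 in EtOH-treated livers. *rel*, the gene of c-Rel, ranged from 3.73 to 12.4 CPM in *mtm* libraries (median 11.4), and was at 3.36, 2.03, 2.65 and 13.6 CPM in EtOH-treated libraries, 1.24, 1.41, 1.13 and 2.59 CPM in overfed libraries and 1.88, 1.54, 1.43 and 2.37 CPM in WT libraries. All *mtm* libraries lay above all WT libraries, while in EtOH-treated livers the value of EtOH 4 stood far above the other 3. Its log2 fold change was 2.78 ± 0.49 in *mtm* against WT livers (6.85-fold, edgeR adjusted p = 0.000739) and 1.22 ± 0.49 in EtOH-treated against WT livers (edgeR adjusted p = 0.157).

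*nfkb2* encodes the precursor that is cut to p52 in the noncanonical branch of the pathway. It ranged from 16.5 to 39.3 CPM in *mtm* libraries (median 25.8), and was at 9.38, 17.3, 20.8 and 69.6 CPM in EtOH-treated libraries, 11.4, 12.2, 8.74 and 14.6 CPM in overfed libraries and 8.86, 13.5, 9.30 and 9.66 CPM in WT libraries. The *mtm* and WT libraries did not overlap, and EtOH 4 was again the highest of all 18. On the log2 scale the change was 1.58 ± 0.41 in *mtm* against WT livers (2.99-fold, edgeR adjusted p = 0.0118) and 1.19 ± 0.44 in EtOH-treated against WT livers (edgeR adjusted p = 0.121). With *mtm* R2 and EtOH 1 both left out, *nfkb2* was called in both. It had 1.71 ± 0.36 in *mtm* livers (edgeR adjusted p = 0.00346) and 1.52 ± 0.41 in EtOH-treated livers (edgeR adjusted p = 0.0371).

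*relb*, whose product pairs with p52, ranged from 8.08 to 18.4 CPM in *mtm* libraries (median 12.4), and was at 31.9, 9.52, 9.84 and 23.5 CPM in EtOH-treated libraries, 6.62, 7.69, 5.69 and 7.98 CPM in overfed libraries and 8.41, 7.21, 3.93 and 4.66 CPM in WT libraries. Only *mtm* R2, at 8.08 CPM, reached into the WT range, and the EtOH-treated and WT libraries did not overlap. The fitted change (log2) was 1.15 ± 0.37 in *mtm* livers (2.22-fold, edgeR adjusted p = 0.0392) and 1.56 ± 0.40 in EtOH-treated livers (2.96-fold, edgeR adjusted p = 0.0234), both against WT livers. This was the least stable call in *mtm* livers. It was lost in 11 of 21 alternatives, among them without *mtm* 2, *mtm* 3 or *mtm* R3 and without any 1 of the 4 WT libraries, with edgeR adjusted p of up to 0.177. In EtOH-treated livers it was lost in 7 of 16, among them without EtOH 1 (edgeR adjusted p = 0.123), EtOH 4 (edgeR adjusted p = 0.0732), WT 1, WT 3 or WT 4. With *mtm* R2 and EtOH 1 both left out, *relb* had 1.33 ± 0.32 in *mtm* livers (edgeR adjusted p = 0.00774) and 1.22 ± 0.36 in EtOH-treated livers (edgeR adjusted p = 0.0604).

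*rela*, the gene of the main canonical subunit p65, had low and overlapping values: 0.0792 to 3.12 CPM in *mtm* libraries (median 2.19), 0.405, 1.57, 2.26 and 5.01 CPM in EtOH-treated libraries and 1.29, 2.78, 1.22 and 1.86 CPM in WT libraries. Its log2 fold changes were 0.09 ± 0.79 and 0.10 ± 0.82, and the standard errors leave room for changes of the size seen for *relb*. *nfkb1*, the gene of the p50 precursor, was below the read filter, with 0.107 to 3.01 CPM in *mtm* libraries and 0 to 0.927 CPM in WT libraries.

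**Figure D2:**
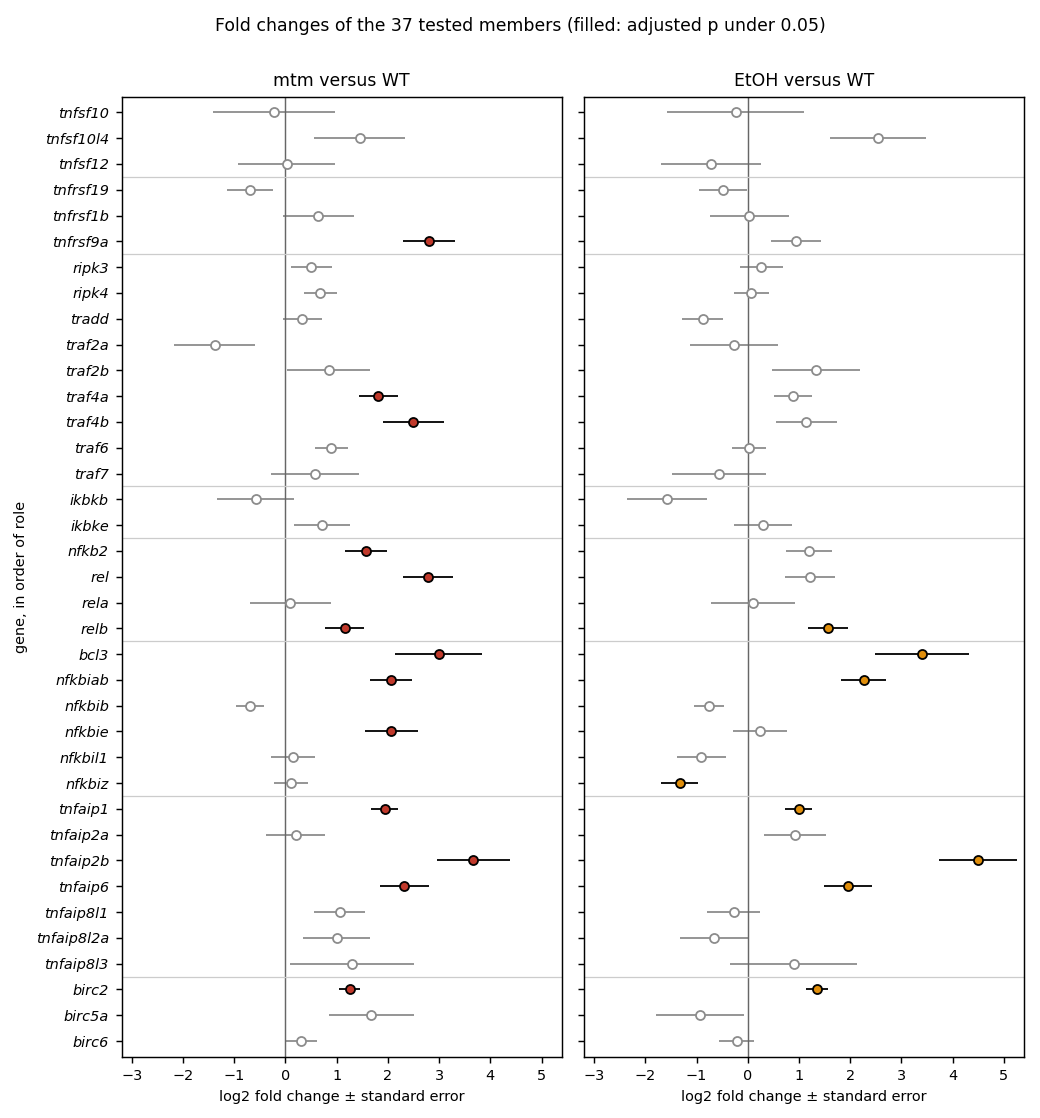
Log2 fold changes with standard errors of the 37 tested members, in order of role, for *mtm* against WT livers (left) and EtOH-treated against WT livers (right); filled points passed an adjusted p of 0.05. On the left 13 points are filled, all above 0, and on the right 8 are filled, of which *nfkbiz* alone lies below 0.

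The IκB proteins, which hold NF-κB dimers in the cytoplasm or act with them in the nucleus, had 6 tested genes. *nfkbiab*, a zebrafish gene of IκBα and a classical NF-κB target, was the IκB gene with the most counts. It ranged from 101 to 285 CPM in *mtm* libraries (median 173), and was at 181, 110, 132 and 906 CPM in EtOH-treated libraries, 45.1, 112, 86.7 and 77.2 CPM in overfed libraries and 40.0, 57.2, 38.9 and 80.3 CPM in WT libraries. Every *mtm* and every EtOH-treated library lay above every WT library. The log2 fold change was 2.07 ± 0.41 in *mtm* livers (4.19-fold, edgeR adjusted p = 0.0019) and 2.26 ± 0.44 in EtOH-treated livers (4.80-fold, edgeR adjusted p = 0.00412). EtOH 4 set part of the size: without it the log2 fold change in EtOH-treated livers was 1.59 ± 0.36 (edgeR adjusted p = 0.0159).

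*bcl3* encodes a nuclear IκB protein that acts with p50 and p52. It ranged from 1.19 to 23.3 CPM in *mtm* libraries (median 9.74), and was at 17.8, 3.33, 7.10 and 26.6 CPM in EtOH-treated libraries, 3.52, 14.2, 1.92 and 2.16 CPM in overfed libraries and 2.01, 1.13, 1.43 and 0.593 CPM in WT libraries. *mtm* R2, at 1.19 CPM, was the only *mtm* library within the WT range, and overfed 2 lay above 5 of the 6 *mtm* libraries. Its log2 fold change was 2.99 ± 0.85 in *mtm* livers (7.94-fold, edgeR adjusted p = 0.0203) and 3.40 ± 0.92 in EtOH-treated livers (10.6-fold, edgeR adjusted p = 0.0322). The call in *mtm* livers was lost in 4 of 21 alternatives (edgeR adjusted p of up to 0.0958), among them without WT 2 and without WT 4. That in EtOH-treated livers was lost in 6 of 16 (edgeR adjusted p of up to 0.114), namely without EtOH 1, without EtOH 4, where the log2 fold change was 2.58 ± 0.89, and without any 1 of the 4 WT libraries. With *mtm* R2 and EtOH 1 both left out, *bcl3* was called in *mtm* livers (log2 fold change 3.27 ± 0.73, edgeR adjusted p = 0.00511) and in EtOH-treated livers (3.16 ± 0.87, edgeR adjusted p = 0.0413).

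*nfkbie*, the gene of IκBε, ranged from 9.58 to 18.8 CPM in *mtm* libraries (median 14.8), and was at 5.73, 0.555, 5.62 and 20.2 CPM in EtOH-treated libraries, 3.05, 3.46, 1.26 and 5.89 CPM in overfed libraries and 3.43, 2.99, 3.72 and 14.3 CPM in WT libraries. A single WT library, WT 4, lay inside the *mtm* range, and the other 3 were below 4 CPM. On the log2 scale the change was 2.06 ± 0.52 in *mtm* against WT livers (4.18-fold, edgeR adjusted p = 0.00976) and 0.24 ± 0.52 in EtOH-treated against WT livers. The call rested on the replicate number as a term of the fit: without it the log2 fold change was 1.27 ± 0.66 (edgeR adjusted p = 0.199).

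*nfkbiz*, the gene of the nuclear protein IκBζ, behaved unlike the other called members. It ranged from 18.5 to 41.0 CPM in *mtm* libraries (median 30.4), and was at 10.2, 7.58, 13.4 and 14.4 CPM in EtOH-treated libraries, 20.2, 51.9, 21.7 and 41.8 CPM in overfed libraries and 18.2, 35.12, 30.7 and 32.6 CPM in WT libraries. All 4 EtOH-treated libraries lay below all other 14 libraries. The fitted change (log2) was -1.33 ± 0.36 in EtOH-treated against WT livers (0.397-fold, edgeR adjusted p = 0.0306) and 0.11 ± 0.33 in *mtm* against WT livers (edgeR adjusted p = 0.869). The call in EtOH-treated livers was lost in 7 of 16 alternatives, including without EtOH 1, EtOH 2, EtOH 4, WT 2, WT 3 or WT 4, with edgeR adjusted p of up to 0.111, and the log2 fold change stayed between -1.47 and -1.13. *nfkbib*, the gene of IκBβ, had log2 fold changes of -0.69 ± 0.27 and -0.76 ± 0.29 in *mtm* and EtOH-treated against WT livers (edgeR adjusted p of 0.0821 and 0.136). *nfkbil1* had 0.14 ± 0.43 and -0.91 ± 0.48.

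Of the 7 tested *tnfaip* genes, *tnfaip1*, *tnfaip2b* and *tnfaip6* were called in both conditions. *tnfaip2b*, 1 of 2 zebrafish genes of a TNF-induced protein known in mammals for membrane nanotubes, had the largest fold change of all tested members in both contrasts. It ranged from 2.38 to 17 CPM in *mtm* libraries (median 5.73), and was at 25, 8.88, 10.3 and 34.1 CPM in EtOH-treated libraries, 0.362, 1.46, 0.927 and 4.53 CPM in overfed libraries and 0.323, 1.44, 0.501 and 1.02 CPM in WT libraries. Neither the *mtm* nor the EtOH-treated libraries overlapped the WT libraries. The log2 fold change was 3.67 ± 0.72 in *mtm* livers (12.7-fold, edgeR adjusted p = 0.00169) and 4.50 ± 0.76 in EtOH-treated livers (22.6-fold, edgeR adjusted p = 0.00157), on few WT counts. Without WT 2 the log2 fold changes were 4.33 ± 0.81 and 5.10 ± 0.84, with edgeR adjusted p of 0.00258 and 0.0029. Its paralog *tnfaip2a* had 0.20 ± 0.58 and 0.93 ± 0.60.

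*tnfaip6* encodes TSG-6, a secreted protein that binds hyaluronan in inflamed matrix. It ranged from 9.28 to 44.1 CPM in *mtm* libraries (median 16.7), and was at 17.6, 14.4, 10.7 and 18.4 CPM in EtOH-treated libraries, 1.91, 3.50, 1.59 and 1.58 CPM in overfed libraries and 3.36, 2.16, 2.72 and 8.31 CPM in WT libraries. Again no *mtm* or EtOH-treated library fell within the WT range. Its log2 fold change was 2.32 ± 0.48 in *mtm* livers (5.00-fold, edgeR adjusted p = 0.00276) and 1.95 ± 0.47 in EtOH-treated livers (3.87-fold, edgeR adjusted p = 0.0174). The second of these calls was lost without EtOH 1 (edgeR adjusted p = 0.0619) and in each fit without WT 1, WT 2 or WT 3, with edgeR adjusted p of up to 0.0682.

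*tnfaip1*, whose mammalian counterpart is an adaptor of a cullin ubiquitin ligase, ranged from 37.1 to 111 CPM in *mtm* libraries (median 42.2), and was at 26.8, 29.8, 24.6 and 20.2 CPM in EtOH-treated libraries, 14.8, 18.8, 17.2 and 12.2 CPM in overfed libraries and 13.1, 16.1, 10.6 and 11.3 CPM in WT libraries. The *mtm* libraries were above all EtOH-treated libraries, and these were above all WT libraries. On the log2 scale the change was 1.94 ± 0.27 in *mtm* livers (3.84-fold, edgeR adjusted p = 9.6e-05) and 1.0 ± 0.26 in EtOH-treated livers (2.00-fold, edgeR adjusted p = 0.029). The top *mtm* value was that of R2, without which the change in *mtm* livers was 1.76 ± 0.21 (edgeR adjusted p = 3.95e-05). The call in *mtm* livers held in each of 21 alternatives that set no fold limit, and that in EtOH-treated livers was lost in 9 of 16 (edgeR adjusted p of up to 0.101), among them without EtOH 1, EtOH 3, EtOH 4, WT 1, WT 2 or WT 3.

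The *tnfaip8* relatives, which in mammals carry phosphoinositides and temper immune responses, had no call in the main edgeR fit, which *tnfaip8l2b* did not enter. DESeq2 called *tnfaip8l1* (log2 fold change 1.34 ± 0.49, adjusted p = 0.0459) and *tnfaip8l2a* (1.66 ± 0.60, adjusted p = 0.0399) higher in *mtm* than in EtOH-treated livers, and edgeR called *tnfaip8l1* in *mtm* against WT livers without *mtm* 1 (1.34 ± 0.44, adjusted p = 0.0408) and *tnfaip8l2a* there without *mtm* R2 and EtOH 1 (1.28 ± 0.40, adjusted p = 0.0324). The one with the widest gap, *tnfaip8l2b*, was below the read filter, at 0.792 to 9.11 CPM in *mtm* libraries (median 4.83), 0, 1.20, 0.781 and 2.00 CPM in EtOH-treated libraries, 0, 0.438, 0.596 and 0.647 CPM in overfed libraries and 0.323, 0, 0.215 and 1.27 CPM in WT libraries. Of the *mtm* libraries only *mtm* 3, at 0.792 CPM, was within the WT range. In the fit with the looser filter its log2 fold change was 4.38 ± 1.22 in *mtm* against WT livers (edgeR adjusted p = 0.0217), with the same limit as for *tnfb*. *tnfaip3*, the gene of the deubiquitinase A20, was not analysed here.

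Of the inhibitor of apoptosis genes, 1 of 3 was called, in both conditions. *birc2* encodes the ubiquitin ligase cIAP1, which is recruited by TRAF2 and keeps the noncanonical kinase NIK low. It was at 76.2, 67.6, 69.6, 79.96, 70.1 and 76.7 CPM in *mtm* 1 to 3 and R1 to R3, 81.4, 86.6, 59.3 and 102 CPM in EtOH-treated libraries, 28.1, 37.1, 35.8 and 31.0 CPM in overfed libraries and 23.6, 36.6, 32.0 and 36.96 CPM in WT libraries. All *mtm* and EtOH-treated libraries lay above all overfed and WT libraries. The fitted change (log2) was 1.25 ± 0.21 in *mtm* livers (2.38-fold, edgeR adjusted p = 0.000517) and 1.35 ± 0.22 in EtOH-treated livers (2.55-fold, edgeR adjusted p = 0.00105), and both calls held in every alternative that set no fold limit (21 and 16). *birc6*, a large ubiquitin-conjugating enzyme, had 0.30 ± 0.31 and -0.22 ± 0.34. *birc5a*, the gene of the mitotic protein survivin, was at 0.640 to 7.29 CPM in *mtm* libraries and 0.103 to 1.61 CPM in WT libraries, with the top value in *mtm* R2 and a log2 fold change of 1.68 ± 0.83 (edgeR adjusted p = 0.184), or 1.23 ± 0.70 without that library (edgeR adjusted p = 0.251).

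**Figure D3:**
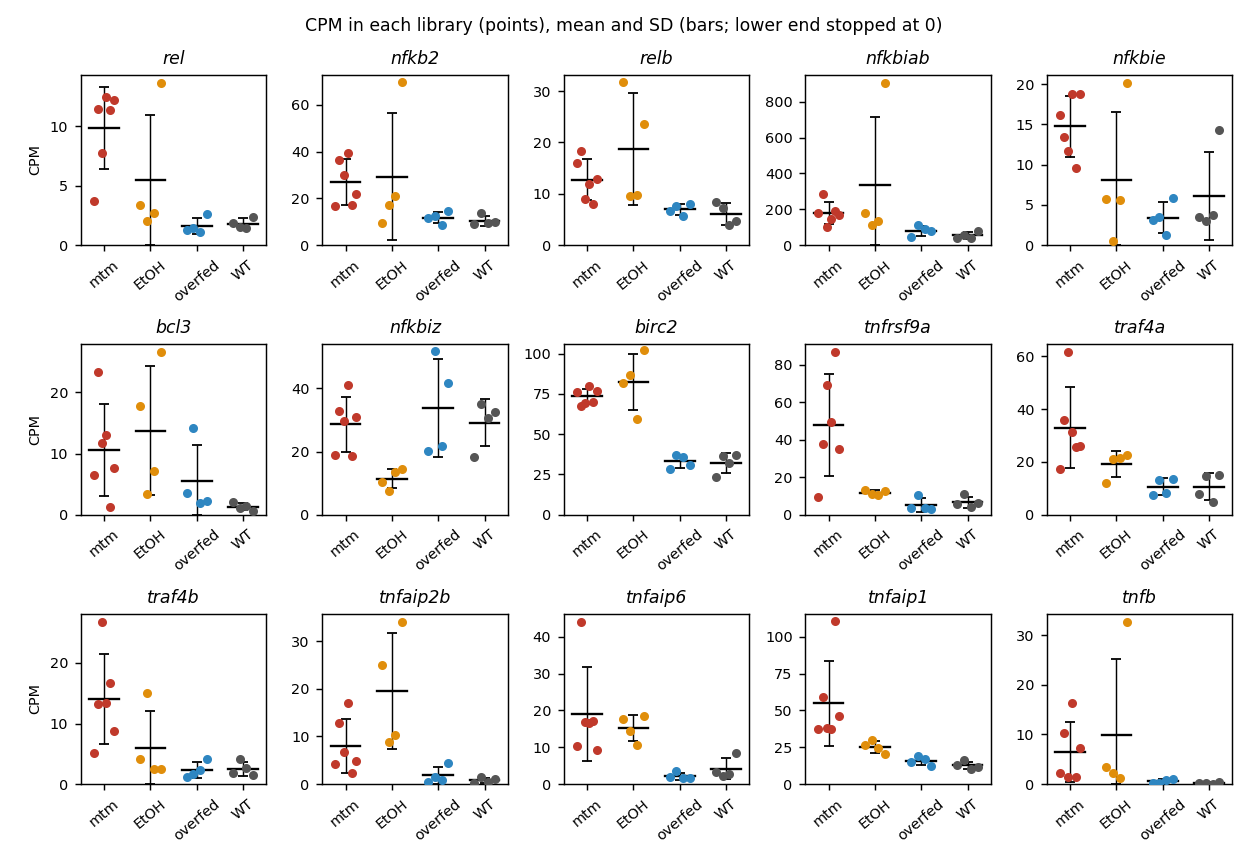
CPM in each library (points) with the mean and SD of each group (bars, lower end stopped at 0) for 15 members, in *mtm* (n = 6), EtOH-treated, overfed and WT livers (n = 4 each). The *birc2* panel shows 2 separate levels, with *mtm* and EtOH-treated libraries at 59.3 CPM and above and overfed and WT libraries at 37.1 CPM and below. The EtOH 4 point is the highest of its group in every panel except *relb*, *tnfrsf9a*, *traf4b* and *tnfaip1*.

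Counted by whether the libraries of 2 groups overlapped, 9 of the 37 members were higher in all *mtm* than in all WT libraries (24.3%, against 6.88% of all tested genes) and 0 were lower (against 6.58% of all tested genes). In EtOH-treated against WT libraries 9 were higher (24.3%, against 8.06%) and 2 were lower, *nfkbiz* and *ikbkb* (5.41%, against 7.63%). With an added limit of an absolute log2 fold change above 2, 8 members remained called higher in *mtm* livers (21.6%, against 4.25% of all tested genes) and 3 in EtOH-treated livers (8.11%, against 2.01%). None was called lower by that limit, against 3.26% and 1.21% of all tested genes. EtOH 4 held the highest value of its group for 24 of the 49 members and the highest of all 18 libraries for 10. Such a share was not particular to it: WT 4 was highest of its group for 24 members, overfed 4 for 23 and WT 2 for 22. *mtm* R2 held the highest value of all 18 libraries for 8 members. The calls of *birc2*, *nfkbiab*, *tnfaip2b* and *tnfaip6* in EtOH-treated livers held without EtOH 4.

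No difference between overfed and WT livers was detected in these genes. None of the 37 members had even an unadjusted p under 0.05 in edgeR, and none was called by DESeq2, and their median log2 fold change was 0.01, with 19 above 0. By overlap of the libraries 0 members were higher and 0 lower, against 2.37% and 1.97% of all tested genes. Over all 11489 genes, edgeR called 0 and had 493 at an unadjusted p under 0.05, and DESeq2 called 28. The largest member change was that of *bcl3* (log2 fold change 1.86 ± 0.88), which had 14.2 CPM in overfed 2 and 1.92 to 3.52 CPM in the other 3 overfed libraries. *birc2* had a log2 fold change of 0.04 ± 0.21 and *rel* -0.27 ± 0.48.

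*mtm* and EtOH-treated livers were also compared directly, in the same fit of all 18 libraries. The difference is between these groups, but the WT and overfed libraries shared in setting its spread and replicate terms. Of the 37 members, 4 were called higher in *mtm* livers and 0 lower (10.8%, against 2.87% and 4.2% of all tested genes). These were *tnfrsf9a* (log2 fold change 1.86 ± 0.49, edgeR adjusted p = 0.031), *nfkbie* (1.83 ± 0.52, edgeR adjusted p = 0.0445, or 0.87 and 0.434 without the replicate number as a term), *nfkbiz* (1.44 ± 0.35, edgeR adjusted p = 0.021) and *tnfaip1* (0.94 ± 0.25, edgeR adjusted p = 0.0349). With the added fold limit 0 members were called, against 1.09% of all tested genes higher and 1.04% lower. All *mtm* libraries lay above all EtOH-treated libraries for *nfkbiz*, *tnfaip1* and *birc6* (8.11% of the members, against 3.65% of all tested genes), and 0 members lay below (against 4.65%). *rel* (1.56 ± 0.48, edgeR adjusted p = 0.0608) and *birc5a* (2.61 ± 0.79, edgeR adjusted p = 0.0575) fell just short, and *birc2* (-0.10 ± 0.20), *nfkbiab* (-0.20 ± 0.41), *bcl3* (-0.41 ± 0.83) and *relb* (-0.41 ± 0.37) had differences no larger than about their standard error. This comparison was the least settled. A fit of only these 2 groups called 0 members, as did fits with *mtm* 1, 2 and 3 as the only mutant libraries, without EtOH 1 or without EtOH 2. Fewer were also called without *mtm* 3 (1), *mtm* R1 (2), *mtm* R3 (2), EtOH 3 (1) or EtOH 4 (2), more without *mtm* 1 or *mtm* R2 (7 each), and 10 by DESeq2. Calls over all 11489 genes moved too, with 330 higher in the main fit. The fits without a called member had 14, 114, 189 and 201, in the order given. Without *mtm* 1 there were 547, without *mtm* R2 435 and by DESeq2 852. The other fits named had 136 to 263. With the resubmitted *mtm* libraries as the only mutant ones, edgeR called *tnfrsf9a* (adjusted p = 0.00582), *tnfaip1* (0.0286), *nfkbiz* (0.0387), *rel* (0.0399) and *birc5a* (0.0435). It did not call *nfkbie* there (adjusted p = 0.0816).

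The zebrafish genome carries several of these genes in 2 copies, and reads that fit both copies are shared out by the quantification. For the pairs *traf2*, *traf4*, *tnfaip2*, *tnfaip8l2* and *tnfrsf9*, the log2 ratio of copy b to copy a was compared between groups in 10 exact two-sided permutation tests. For *tnfaip2* the ratio averaged 0.64 ± 1.65 (SD, n = 6) in *mtm* and -2.11 ± 0.94 (SD, n = 4) in WT libraries (exact permutation p = 0.0286). In EtOH-treated libraries it averaged 1.42 ± 1.80 (SD, n = 4; exact permutation p = 0.0286 against WT, the smallest that 4 against 4 allows). None of the 10 passed Benjamini-Hochberg adjustment, the smallest adjusted exact permutation p being 0.143. Tests of 4 against 4 had little room to pass it, as their p cannot fall below 0.0286. No conclusion about the pairs is drawn from this. *tnfrsf9b* and *tnfaip8l2b* were below the read filter and both *traf2* copies were at 0 in *mtm* R2. These ratios therefore depend on the small count added.

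Other genes of the pathway were taken from lists of its known parts. Of 23 tested adaptors, ubiquitin enzymes and kinases around the TNF receptor and IKK complexes, 2 were called higher in *mtm* livers and 1 lower, and 0 in EtOH-treated livers. These shares (8.7% and 4.35% in *mtm* livers) were no larger than those of all tested genes (10.1% and 8.59%). The 2 higher genes were *tbk1*, an IKK-related kinase (log2 fold change 0.99 ± 0.26, edgeR adjusted p = 0.0113), and *map3k14a*, the gene of the kinase NIK (1.43 ± 0.46, edgeR adjusted p = 0.0409). The gene called lower was *diabloa*, which encodes an antagonist of BIRC proteins (-1.28 ± 0.39, edgeR adjusted p = 0.0294). Of 11 tested genes of the Toll and interleukin-1 branch, *il1b* and *pycard*, the inflammasome adaptor, were called higher in *mtm* livers (18.2%, against 10.1% of all tested genes). *il1b* was at 7.57 to 65.9 CPM in *mtm* libraries, 2.97 to 98.5 CPM in EtOH-treated libraries and 1.19 to 3.71 CPM in WT libraries, with log2 fold changes of 4.05 ± 0.74 (edgeR adjusted p = 0.00104) and 2.96 ± 0.79 (edgeR adjusted p = 0.0307).

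A list of NF-κB target genes was written with earlier results of these data known, so its shares are a description and not a test. Of its 23 tested genes, 15 were called higher and 2 lower in *mtm* livers, 14 higher and 0 lower in EtOH-treated livers, and 0 in overfed livers. The shares called higher were 65.2% and 60.9% in *mtm* and EtOH-treated livers, against 10.1% and 4.66% of all tested genes, and those called lower 8.7% and 0.0%, against 8.59% and 2.7%. The list shares *mmp9* with the tested neutrophil markers and *il1b* with the Toll and interleukin-1 list. It also shares the name *mmp13a* with the neutrophil markers, but this gene was not analysed here and is in neither count. The median log2 fold changes of the 23 genes were 1.45, 1.4 and 0.20 in *mtm*, EtOH-treated and overfed livers. The stress gene *gadd45bb* had the smallest adjusted p, with 46.0 to 74.2 CPM in *mtm* libraries, 64.1 to 115 CPM in EtOH-treated libraries, 9.27 to 14.9 CPM in overfed libraries and 3.50 to 7.04 CPM in WT libraries. Its log2 fold changes were 3.37 ± 0.24 in *mtm* (edgeR adjusted p = 3.76e-07) and 4.11 ± 0.25 in EtOH-treated livers (edgeR adjusted p = 1.58e-07). In these contrasts the chemokine gene *ccl35.1* had 7.71 ± 0.72 and 3.70 ± 0.60, the matrix protease gene *mmp9* 4.59 ± 0.48 and 2.88 ± 0.44, and the cytokine signaling inhibitor *socs3a* 4.48 ± 0.54 and 3.95 ± 0.52. The adhesion molecule gene *vcam1b* was called lower in *mtm* livers (-1.60 ± 0.29, edgeR adjusted p = 0.000982).

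Several markers of leukocytes and bile ducts were also called higher in *mtm* and EtOH-treated livers. Of all tested genes, 10.1% were called higher and 8.59% lower in *mtm* livers, and 4.66% and 2.7% in EtOH-treated livers. Macrophage markers (15 of 19 listed genes in the table, none at 0 in all libraries) summed to 190 to 545 CPM in *mtm* libraries, 54.4 to 116 CPM in EtOH-treated libraries, 20.8 to 42.3 CPM in overfed libraries and 23.6 to 37.1 CPM in WT libraries, and 9 of the 9 tested were called higher in *mtm* livers and 3 in EtOH-treated livers. Some low markers did not follow the sums. Medians of *lgals3bpb* were 6.99 CPM in *mtm*, 0.0925 CPM in EtOH-treated and 1.63 CPM in WT libraries. Those of *cd74b* were 0.243, 0.347 and 0.503 CPM. Of the 9 neutrophil markers in the table, all tested, 8 and 3 were called higher in *mtm* and EtOH-treated livers. Their summed levels were 802 to 4979.8 CPM, 2319 to 5120.2 CPM, 322 to 836 CPM and 407 to 8234 CPM in *mtm*, EtOH-treated, overfed and WT libraries, and were made up mostly of *lect2l* and *cpa5*. Without these genes, which were set apart after their values were seen, the sums were 188 to 329 CPM, 62.1 to 102 CPM, 18 to 29.4 CPM and 18.8 to 37.2 CPM. The 2 genes set apart had another order. Medians of *cpa5* were 282 CPM in *mtm*, 524 CPM in EtOH-treated and 780 CPM in WT libraries. Those of *lect2l* were 1533, 1865 and 233 CPM. Bile duct markers (12 genes, of which *krt18a.1* and *hnf1ba* were at 0 throughout) summed to 3251 to 6945 CPM in *mtm*, 3526 to 4529.6 CPM in EtOH-treated, 1266 to 1496 CPM in overfed and 1153 to 2499.5 CPM in WT libraries, with 6 and 3 of the 8 tested called higher in *mtm* and EtOH-treated livers. Not all of the list rose: *her15.1* had medians of 0.480 CPM in *mtm*, 2.51 CPM in EtOH-treated and 5.74 CPM in WT libraries. For *krt18b* these medians were 1.57, 3.98 and 1.81 CPM. Hepatocyte markers (8 of 15 listed genes in the table) summed to 23509 to 121078 CPM in *mtm*, 54065 to 94126 CPM in EtOH-treated, 140550.0 to 189227 CPM in overfed and 108547 to 194100.0 CPM in WT libraries, with 3 of the 8 called lower in *mtm* livers. Of the markers of other cells and tissues, 3 of 8 for intestine and 3 of 8 for epidermis were called lower in *mtm* livers (37.5% each). For endothelium 1 of 10 was called higher there (10.0%), near the share of all tested genes. In EtOH-treated livers 1 of 13 for skeletal muscle (7.69%) and 1 of 8 for epidermis (12.5%) were called higher. There 1 of 8 for intestine was called lower (12.5%). The muscle list as a whole was higher in EtOH-treated livers, with a median log2 fold change of 2.45 against WT livers. Its sums were 583 to 8415 CPM (median 742) in EtOH-treated and 92.7 to 556 CPM (median 249) in WT libraries. In *mtm* against EtOH-treated livers 6 of the 13 muscle markers were called lower and 0 higher (46.2%, against 4.2% of all tested genes lower). Of 12 tested pancreas and 6 tested erythrocyte markers, 0 were called in either condition. In bulk livers, more cells of a type and more RNA per cell cannot be told apart. The part of leukocytes or bile duct cells in the changes of the TNF and NF-κB genes was not tested.

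**Figure D4:**
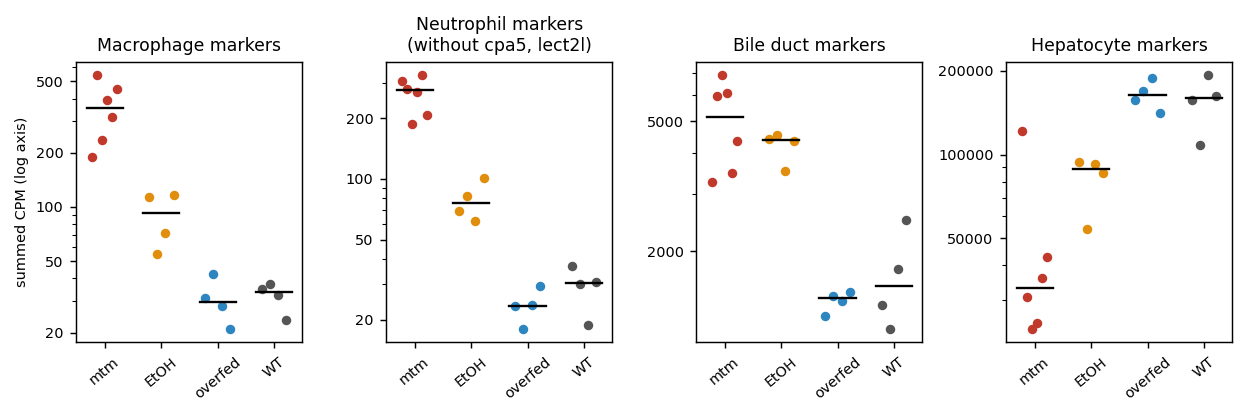
Summed CPM of marker genes (log axis) in each library (points) with the median of each group (line), for macrophages, neutrophils (without *lect2l* and *cpa5*), bile ducts and hepatocytes in *mtm* (n = 6), EtOH-treated, overfed and WT livers (n = 4 each). Macrophage sums and these reduced neutrophil sums are highest in *mtm*, intermediate in EtOH-treated and lowest in overfed and WT libraries. With *lect2l* and *cpa5* included, the median neutrophil sum was 1897 CPM in *mtm*, 2962 CPM in EtOH-treated and 991 CPM in WT libraries. Hepatocyte sums run the other way from the macrophage sums, apart from *mtm* 1, at 121078 CPM.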

How the data were processed

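The deposited table held estimated counts per gene, made by the authors. The submitters' processing notes list FastQC 0.11.09, Trim Galore 0.6.6, Salmon, DESeq2 1.24.0 and the build GRCz11. How transcripts were brought to genes is not given in the sources used here. Libraries were made from amplified cDNA with a SMART-Seq kit and Nextera XT, without molecular identifiers, so that counts are not independent molecules, and the protocol does not mark strand. The table of 20-liver *abcb11b* pools and its transcript files were not used.

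Estimated counts were rounded to whole numbers and fitted with edgeR 4.0.16 (R 4.3.3), with TMM factors, the 4 groups and the replicate number as terms, over 18 libraries (11 residual degrees of freedom), as the study's methods use the replicate as a covariate and the same read filter. Steps were tested on simulated data. CPM values are over TMM-scaled totals. Alternatives included DESeq2 1.42.0, other scalings and filters, subsets of libraries and the fit without the replicate number. Genes named are all called members (up to 25 by adjusted p), the member of each role with the highest mean CPM, a set of core pathway genes whatever their values, and up to 5 genes of each further list by adjusted p in *mtm* against WT livers. Other members given with values were added after these were seen. Members and lists were chosen with earlier results of these data known, so they are described by counts and medians without a test of the list. No sequence or coordinate is printed.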

Additional observations from a re-analysis of the deposited data

Results flagged for a closer look

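In 100 groups of 4 or 6 libraries of the 25 named members, 7 had a library whose gap to its nearest neighbour, on the log2 CPM scale and divided by the range of the group, passed Dixon's critical value, which chance does in about 1 in 20. EtOH 4, the highest of its group for many members, did not pass it for any of the 25. *mtm* R2 accounted for 3 of them, at 1427 CPM for *ripk3*, 0 CPM for *traf2b* and 16.6 CPM for *traf6*. The others were *nfkbie* in WT 4 (14.3 CPM), *tnfrsf1b* in EtOH 2 (0.185 CPM), *traf4a* in EtOH 1 (12 CPM) and *traf6* in overfed 4 (11.3 CPM). WT 4 also held the highest summed pancreatic enzyme markers of all libraries (67415 CPM, against 182 to 29289 CPM elsewhere), whose part in its *nfkbie* value was not tested.

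A direct test between *mtm* and EtOH-treated livers separated 4 genes, all higher in *mtm* livers: *tnfrsf9a* (log2 difference 1.86), *nfkbie* (1.83), *nfkbiz* (1.44) and *tnfaip1* (0.94). *nfkbiz* kept its call in 17 of 21 alternatives, *tnfaip1* and *tnfrsf9a* in 12 each and *nfkbie* in 5.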

How the results depend on the processing

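No call reversed its direction under any alternative. In *mtm* against WT livers, 13 members were called higher, with 8 left under an added log2 fold limit of 2 and 11 to 14 when 1 library was left out. 9 of them held in all 21 alternatives without a fold limit, and *relb*, *bcl3*, *nfkb2* and *nfkbie* did not. 0 were lower, but 1 (*nfkbib*) without the replicate block, and 0 to 1 when 1 library was left out. In EtOH-treated against WT livers, the 7 higher members became 3 with the fold limit and 3 to 7 with a library left out (3 without EtOH 1, WT 1 or WT 3 and 4 without EtOH 4 or WT 2), and the 1 lower member became 0 with library totals unscaled by TMM, 0 with the fold limit and 0 to 1 with a library left out. In *mtm* against EtOH-treated livers, the 4 higher members became 10 with DESeq2, 8 with unscaled library totals, 2 without a read filter, 0 with only the compared groups, 0 with the first submission alone, 0 with the fold limit and 0 to 7 with a library left out. With the resubmitted *mtm* libraries alone, *tnfrsf9a*, *tnfaip1*, *nfkbiz*, *rel* and *birc5a* were called in this comparison. The causes were not tested. Calls over all tested genes moved as well. In *mtm* against WT livers 1160 genes were called higher, or 782 to 1344 with a library left out. In EtOH-treated against WT livers these were 535 and 260 to 518. In *mtm* against EtOH-treated livers 330 were called higher, or 136 to 547 with a library left out. There 852 were called higher with DESeq2, 792 with unscaled totals and 294 without a read filter. Only the compared groups gave 14 and the first submission alone 114. Unscaled totals shift the median of all genes to 0.38 in *mtm* against WT and 0.40 against EtOH-treated livers. Overfed livers gave 0 members under all alternatives run. Leaving out *mtm* R2 and EtOH 1 together, chosen after seeing the data, gave 16 higher members in *mtm* livers, 7 higher and 1 lower in EtOH-treated livers and 3 in the direct comparison. In EtOH-treated livers *nfkb2* was then called and *relb* was not. In the direct comparison the 3 were *nfkbiz*, *tnfaip1* and the ligand *tnfsf12*, while *tnfrsf9a* and *nfkbie* were lost. Over all tested genes the calls moved too. Over all tested genes that fit called 1473, 482 and 259 higher, against 1160, 535 and 330 in the main fit.

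The replicate number was a term of the main fit, as in the study's methods. Deviations from group means correlated at a median of -0.0026 over 30 same-numbered pairs and 0.0022 over 90 other pairs. By these medians, same-numbered libraries were no more alike than others. Of the 30, 7 were over 0.1, 3 of them among the 4 pairs of overfed with WT libraries (-0.1197 to 0.3371). Of the 90 other pairs, 14 were over 0.1, and differently numbered overfed and WT libraries ranged from -0.3566 to 0.2692. Without the replicate block, 11 members were called higher and 1 lower in *mtm* livers, 6 higher and 1 lower in EtOH-treated livers and 4 in the direct comparison, and *nfkbie* in *mtm* against WT livers had a log2 fold change of 1.27 (edgeR adjusted p = 0.199). Over all tested genes that fit called 1205, 554 and 394 higher, against 1160, 535 and 330 with the block.

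Depth limits the 12 members below the read filter. For *tnfa* no difference could be detected.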
